A study of Mus musculus with 15 samples.

Results

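Livers of 10 week old mice that drank arsenic after weaning were compared with livers of mice kept on tap water. The comparison rests on the 3 arrays labelled 10 week tap/as and the 3 labelled 10 week tap/tap, which are 6 of the 15 arrays of the series. All mice lacked apolipoprotein E (ApoE-/-) by the description of the animals in the methods, so the controls carried the deletion too. The labels give the strain only as C57/BL6J. The tap/as mice received 49 ppm arsenic, made from sodium arsenite at 85 mg/L, in drinking water from postnatal day 21 until they were killed at 10 weeks. The tap/tap mice drank tap water without added arsenic, before and after birth. Another group of 10 week mice, as/tap, was born to dams given the same arsenic water from gestational day 8 until birth and drank tap water afterwards. The remaining 6 arrays held newborn livers, 3 from pups of dams given that arsenic water and 3 from pups of dams on tap water. They enter no comparison here, but they were normalized together with the other arrays and enter the estimate of the spread between arrays. Each mouse came from a separate litter. Each array carried liver RNA of 1 mouse labelled with Cy3 and a common mouse reference RNA, pooled from cell lines, labelled with Cy5. Values are given as the log2 ratio of liver over reference, so a difference of 1 is a doubling.

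The liver takes up arsenite from the blood and methylates it, and the methylated forms leave mainly through urine. Trivalent arsenic binds to thiols, and cells exposed to it are known for inducing antioxidant genes under NRF2, heat shock genes and metallothioneins. In mice without apolipoprotein E, remnant lipoproteins are cleared poorly by the liver and cholesterol in plasma is high. Whole liver RNA comes mostly from hepatocytes, with Kupffer, endothelial, stellate and blood cells adding their own, and in such bulk RNA fewer cells of a type and less RNA per cell cannot be told apart.

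The array files name each 60 base probe by a number and give its sequence but no gene, so the probes below carry their array numbers. The first 30 bases, 5′ to 3′, of the 4 probes on which most of the results turn are shown so that each can be identified. Z00020599-1 had the largest increase among called probes, Z00011620-1 the smallest p-value, Z00041696-1 fell against both other 10 week groups, and Z00024586-1 had the most negative ratio difference among the called probes, with a change in the reference channel.
Z00020599-1: gttatggatcagttctacacagagtcaaaa
Z00011620-1: aaagaggagagctatgatttgatactgtca
Z00041696-1: taagacacatgtagtgggcagaaatagact
Z00024586-1: gtcaaaggtacagaagaaacagaggacact

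The median liver signal above local background lay between 146.5 and 193 intensity units on the 6 arrays, and 8 to 35 spots per array were set aside as outliers. All non-control spots were well above background in the liver channel, as judged by the scanner software, so that flag sets no lower limit here. In a principal component analysis of the 9 arrays of 10 week mice, tap/tap replicate 1 lay at 18.9 on the first component, and tap/tap replicates 2 and 3 lay at -27 and -29.2. The second component placed the 3 tap/as arrays between 11.7 and 13.8 and the 3 tap/tap arrays between -29.3 and -4.64. The as/tap arrays lay at -8.8, 8.01 and 6.39 on it, and the tap/as arrays spread from -12.4 to 20.6 on the first component. Image analysis of the 9 arrays ran group after group, so order and group cannot be told apart.

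**Figure D1:**
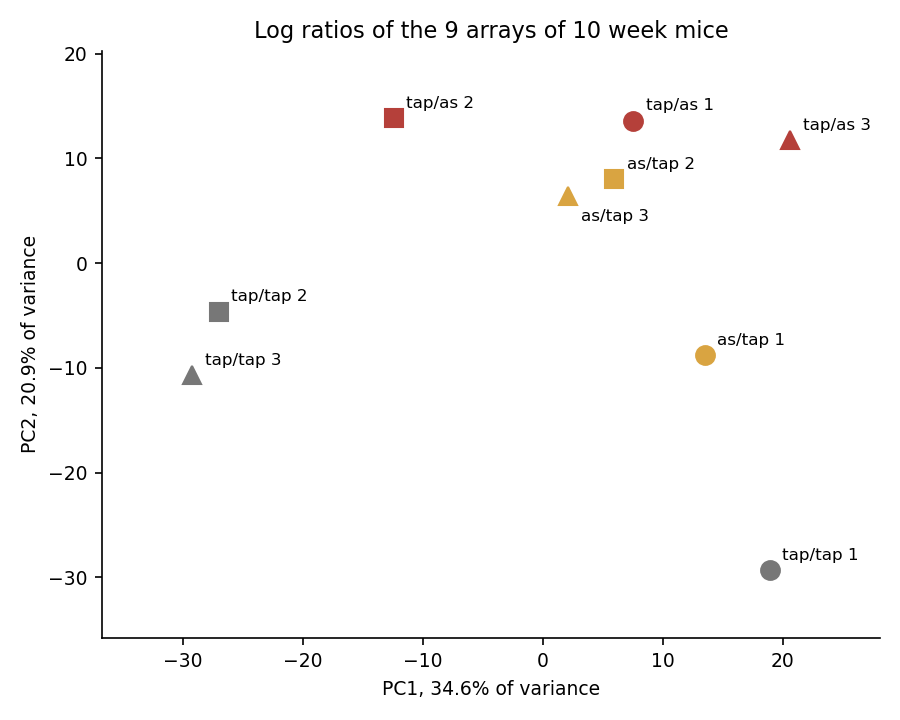
Scores of the 9 arrays of 10 week mice on the first and second principal components of the log2 ratios, which hold 34.6% and 20.9% of the variance; colours are groups and shapes are replicate numbers. The tap/as arrays lie together on the second component, and tap/tap replicate 1 lies apart from the other tap/tap arrays.

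Most probes that passed the test were higher after postweaning arsenic. With limma fitted to all 15 arrays, 374 of 42006 probes, or 0.89%, differed between tap/as and tap/tap at a Benjamini-Hochberg adjusted p of 0.05. Of these, 355 probes (0.845% of those tested) were higher in tap/as and 19 (0.0452%) were lower. At an unadjusted p of 0.01, 1900 probes (4.52%) differed, of which 1618 (3.85%) were higher and 282 (0.671%) were lower. All 3 tap/as values lay above all 3 tap/tap values for 12.8% of the 41871 probes measured on all 6 arrays, and below them for 4.93%.

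The count of calls rested on which arrays were fitted. Without the 6 newborn arrays, 868 probes passed the adjustment. With only the 6 compared arrays no probe passed the adjustment, the smallest adjusted p being 0.076, although 5176 probes had an unadjusted p under 0.05, against 4767 (11.3%) in the fit to 15 arrays. Without tap/tap replicate 1 the calls rose to 1391 and divided into 661 higher and 730 lower, so that the excess of increases depended on that array. Leaving out tap/tap replicate 2, tap/tap replicate 3, tap/as replicate 1 or tap/as replicate 3 left 6, 3, 18 and 4 calls. Without tap/as replicate 2 there were 407, 378 of them higher, and 261 were among the 374.

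**Figure D2:**
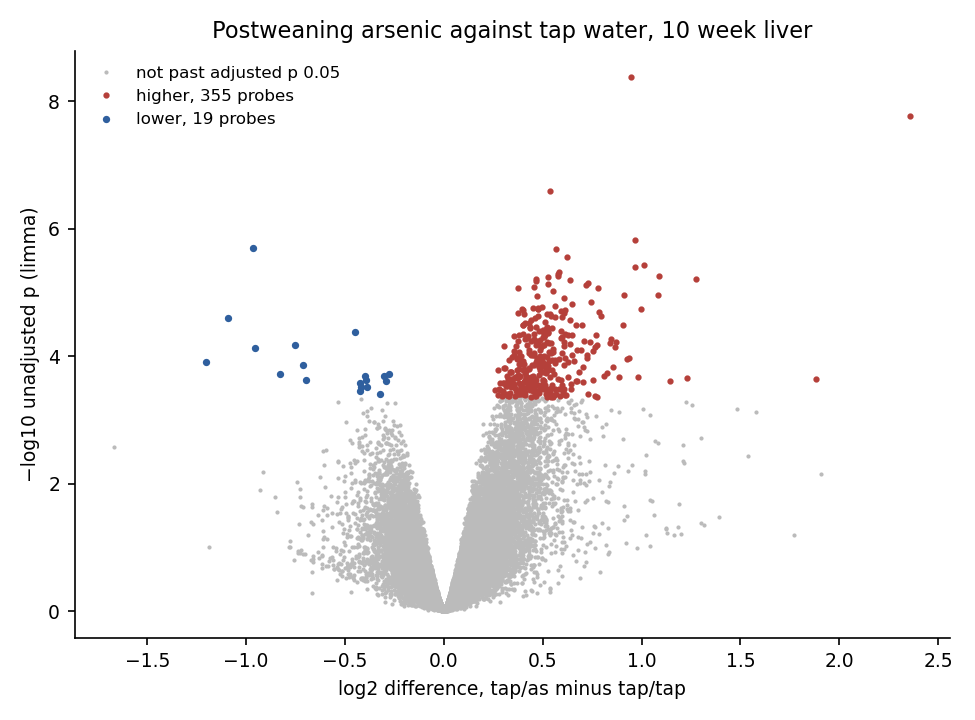
Each point is 1 of 42006 probes, with the log2 difference between tap/as and tap/tap on the horizontal axis and the -log10 of the unadjusted limma p on the vertical axis. The 355 probes called higher outnumber the 19 called lower, and Z00020599-1 stands at the far right at 2.36.

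The changes were modest in size. The median difference of the 355 higher probes was 0.48 and 8 of them reached 1, while the 19 lower probes had a median of -0.43 and 2 reached -1. Across all probes the median difference was 0.00. The probes called higher had bright liver signals, 249 of the 355 falling in the brightest quintile of all probes, where 2.96% of probes were called higher, against 0.0476% in the dimmest quintile. They were also mostly signals that the reference RNA exceeded: 215 of the 355 lay in the quintile of probes with the lowest liver over reference ratio in controls. In that quintile 2.56% of probes were called higher, against 0.869% in the quintile with the highest ratio. Of the 355, 105 (29.6%) were higher in control liver than in the reference, against 47% of all probes.

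Of the called probes, Z00020599-1 rose most. Its log2 ratio was 0.46, -0.22 and -0.40 in the tap/tap livers and 2.52, 2.15 and 2.25 in the tap/as livers. The groups were separated by more than the spread within either, with a 5.13-fold increase (log2 difference 2.36, SE 0.20, limma adjusted p = 0.000361). The as/tap livers had -0.19, -0.12 and 0.36, within the range of the controls. The difference was carried by the liver channel, which rose by 2.12 on the log2 scale, while the reference channel differed by 0.05. The change passed the adjustment in 16 of 17 alternative analyses, the exception being the fit to the 6 compared arrays. Its size depended on the background correction, the log2 difference being 1.10 without background subtraction.

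Z00011620-1 had the smallest p-value of the comparison. It read -0.03, -0.18 and -0.17 in tap/tap, and 0.78, 0.81 and 0.87 in tap/as. The difference was 0.95 (SE 0.07, limma adjusted p = 0.000179). In as/tap it read 0.43, 0.57 and 0.50, above every control and below every tap/as liver, with a difference from the shared controls of 0.63 (limma adjusted p = 0.0244). The direct difference between tap/as and as/tap, 0.32, did not pass the adjustment (limma adjusted p = 0.268).

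Z00061755-1 was flat among controls, at 0.97, 0.94 and 1.00, and read 2.41, 1.95 and 2.36 after exposure, a difference of 1.27 (SE 0.18, limma adjusted p = 0.0152). Z00023006-1 read -1.45, -0.99 and -1.07 in tap/tap and -0.35, -0.10 and 0.20 in tap/as, a difference of 1.09 (limma adjusted p = 0.0152). The groups were apart for each of these probes, as the rule for naming required. Z00036095-1 rose by 1.01, from 2.15, 1.64 and 1.92 to 3.14, 2.60 and 3.00 (limma adjusted p = 0.0152). Z00001140-1 differed by only 0.53, but its controls lay between -0.83 and -0.82 and its exposed livers between -0.35 and -0.20 (limma adjusted p = 0.00361). This small and tight change was called in 15 of 17 alternatives.

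Z00057225-1, by contrast, had the second largest increase and a wide spread. It read 1.24, 1.24 and 1.42 in tap/tap and 2.89, 2.76 and 3.89 in tap/as, so replicate 3 alone lay about 1 log2 unit above the other exposed livers. Its difference of 1.88 had an SE of 0.38 (limma adjusted p = 0.0397) and passed in 7 of 17 alternatives. Without background subtraction it was 0.82 for this probe and 0.71 for Z00048802-1, and neither passed. Z00048802-1 showed the same array apart, with 2.54, 2.66 and 3.50 in tap/as against 1.27, 1.92 and 1.83 in tap/tap (difference 1.23, limma adjusted p = 0.0391). Tap/as replicate 3 was the highest of the 3 exposed livers for 245 of the 355 probes, and replicate 2 the lowest for 246. Over those 355 probes the median rise above the control mean was 0.49, 0.40 and 0.57 in replicates 1, 2 and 3.

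The other named increases were Z00036113-1, Z00004899-1, Z00033049-1, Z00000953-1, Z00021369-1 and Z00012235-1. Their differences ranged from 0.56 for Z00012235-1 to 1.14 for Z00036113-1, and none of their groups overlapped, as the rule for naming required. They passed the adjustment in 6 (Z00036113-1 and Z00000953-1) to 12 (Z00021369-1) of 17 alternatives. In the liver channel alone Z00000953-1 and Z00012235-1 did not pass (limma adjusted p = 0.0929 and 0.0541). Z00033049-1 was the dimmest of the named probes, with liver signals of 29.2 to 86.9 intensity units above background, and its difference ranged from 0.18 to 1.88 over the alternatives.

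**Figure D3:**
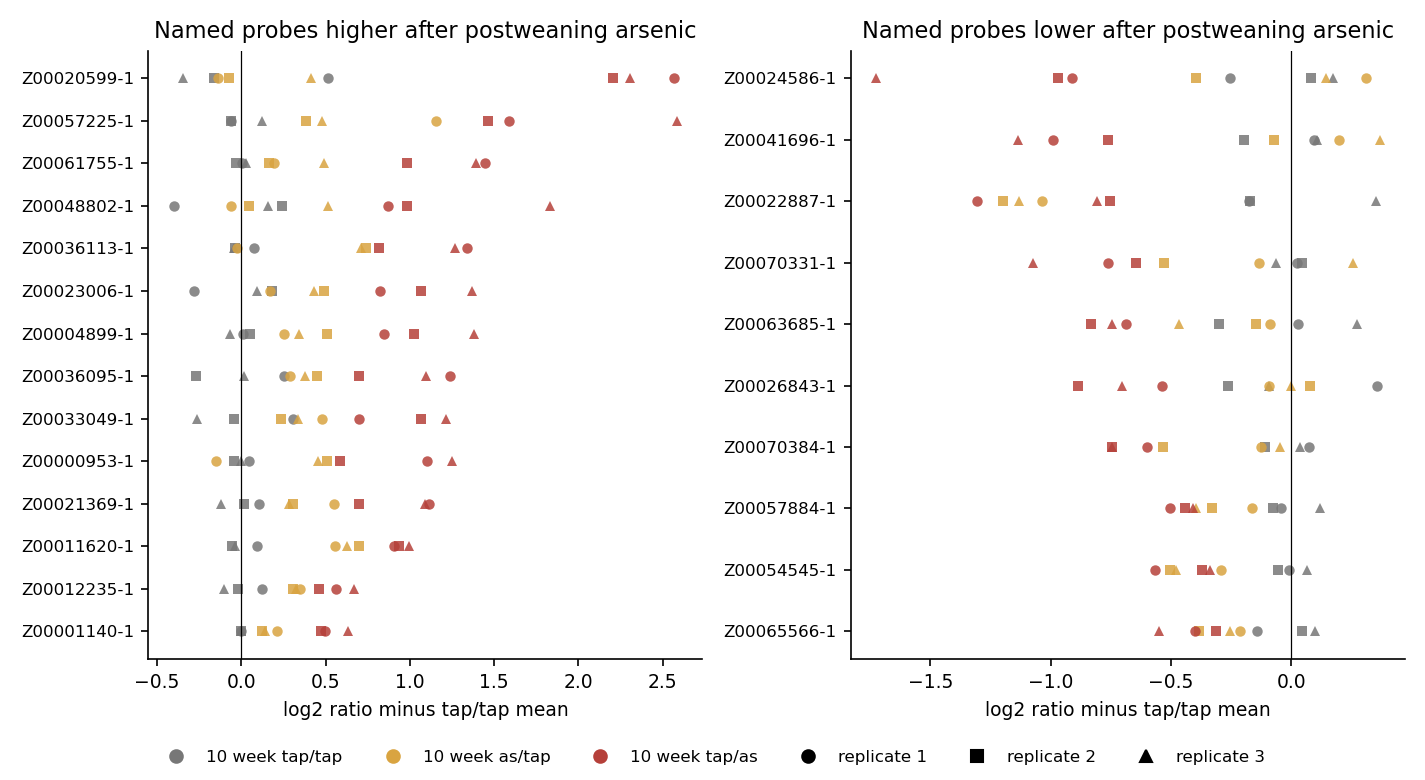
Log2 ratio of each named probe minus its mean in the tap/tap livers, for the 9 arrays of 10 week mice; the left panel holds the 14 increases and the right panel the 10 decreases. The tap/as points lie beyond the tap/tap points on every line, which the rule for naming required.

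Among decreases, Z00041696-1 was the clearest. It read 0.39, 0.10 and 0.41 in tap/tap and -0.69, -0.46 and -0.84 in tap/as. The groups did not overlap, as the rule for naming required, and the difference of -0.96 (SE 0.12) had a limma adjusted p of 0.0147. The liver channel fell by 0.91, and the reference channel differed by -0.04. Without background subtraction the difference in ratio was -0.36. The as/tap livers read 0.50, 0.23 and 0.67, all above the exposed livers.

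Z00024586-1 had the most negative ratio difference of the called probes, -1.20 (SE 0.22, limma adjusted p = 0.0297), but its liver signal did not fall. That value is not exact, since its liver spot was saturated after exposure and the true difference may be less negative. The log2 liver signal was 15.96, 15.87 and 15.51 in tap/tap and 15.99 in each of the 3 tap/as livers, where the spot was at the scanner's limit. On these values the tap/as mean was 1.16-fold higher, a gap that rests mostly on tap/tap replicate 3. Saturation may hide a larger change. The limma adjusted p of 0.695 for this channel was computed on the capped values and does not bear on the size of the change. The reference channel of the same spot read 11.65, 11.22 and 10.74 in tap/tap and 12.53, 12.63 and 13.45 in tap/as. That channel rose by 1.67 (limma adjusted p = 0.0357), so the lower ratio at this probe is a change in the reference channel beside a saturated liver signal.

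Z00022887-1 changed in both channels. Its ratio fell from 4.08, 4.09 and 4.61 to 2.95, 3.51 and 3.45 (difference -0.96, limma adjusted p = 0.0252), the liver signal by 1.85 and the reference signal by 1.00 on the log2 scale. With the scanner's own log ratio the difference was -0.55 and did not pass the adjustment. In as/tap the ratio was 3.23, 3.06 and 3.13, also below all 3 controls, and its difference from the same controls was -1.12 with a limma adjusted p of 0.128. Z00054545-1 likewise had a lower reference signal, by 0.37 (limma adjusted p = 0.028), beside a ratio difference of -0.43. Of the 19 lower probes, 5 (26.3%) passed the adjustment in the reference channel, which holds the same RNA on every array, against 2.66% of all probes.

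The other named decreases, Z00070331-1, Z00063685-1, Z00026843-1, Z00070384-1, Z00057884-1 and Z00065566-1, ranged from -0.83 to -0.42. None of their groups overlapped, as the rule for naming required, and none passed the adjustment in the reference channel. They passed the adjustment in 6 to 8 of 17 alternatives. In the liver channel alone Z00063685-1, Z00026843-1, Z00057884-1 and Z00065566-1 did not pass (limma adjusted p from 0.0559 to 0.174). A further probe, Z00007118-1, chosen after its values were seen, fell by 1.09 (limma adjusted p = 0.0197) but lacked a value on tap/tap replicate 1.

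The 355 increases were largely changes of the liver channel. That channel was higher in tap/as for 350 of the 355 (98.6%), against 51.2% of all probes. Its median difference was 0.45, against 0.06 in the reference channel. The 355 were chosen for a high ratio, so a higher liver channel follows in part from that choice. In the liver channel alone, 172 of them (48.5%) passed the adjustment. In the reference channel 11 of the 355 (3.1%) passed the adjustment, near the share among all probes. The liver channel analysed alone gave 1237 calls (2.94%) and another balance of directions, with 505 called higher (1.2%) and 732 called lower, and 183 of its calls were among the 374.

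**Figure D4:**
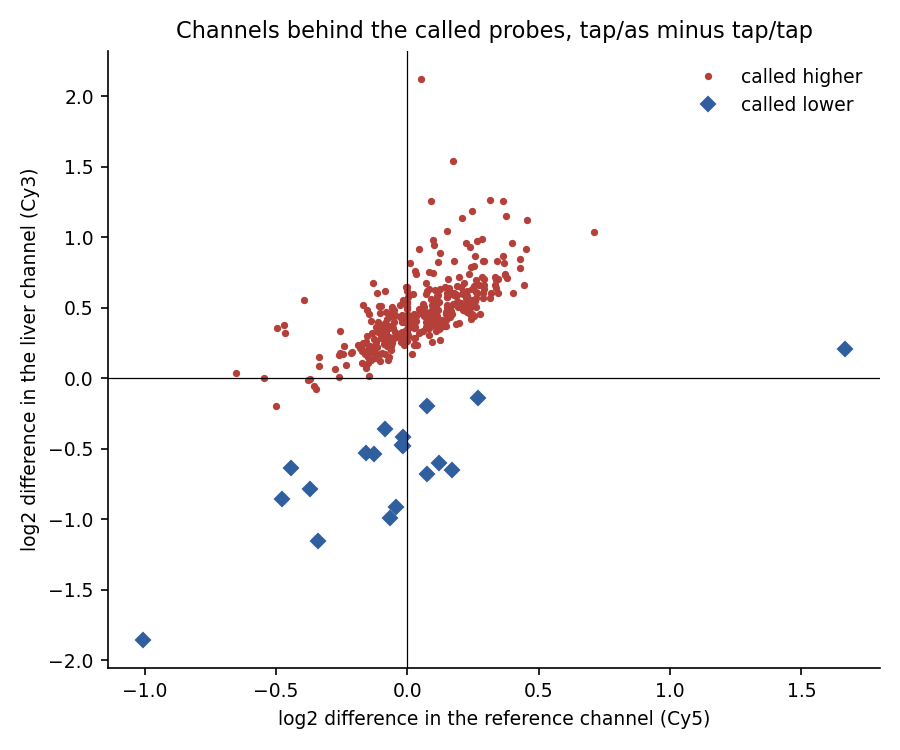
Difference between tap/as and tap/tap in the reference channel (horizontal) and in the liver channel (vertical), both on the log2 scale, for the 355 probes called higher and the 19 called lower. Most points lie near 0 on the reference axis, and Z00024586-1 lies alone at 1.67 with a liver difference of 0.21.

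Some called probes share part of their sequence with another probe of the array. A stretch of 30 or more bases was shared by 14 pairs of probes of which at least 1 was called, and in 7 of these pairs both were called. In all 14 pairs the differences had the same sign, which shared bases and the call of at least 1 member favour beforehand. The share among all overlapping pairs on the array was not counted. Z00042607-1 and Z00058001-1, which share 57 bases, differed by 0.48 and 0.44. Z00034766-1 and Z00060812-1, which share 52 bases, differed by 0.73 and 0.85. Of the 7 partners that were not called, 5 had all tap/as values above all tap/tap values, as had 12.8% of all probes. The groups overlapped for the other two. One of them, Z00060565-1, shares 30 bases with Z00060623-1 and differed by 0.12 with an unadjusted limma p of 0.135, against 0.39 for its partner. The other, Z00030393-1, shares 58 bases with Z00060497-1 and differed by 0.15 with an unadjusted limma p of 0.136, against 0.41 for its partner. Partners share bases and arrays, so they are not independent measurements, and whether they read the same transcript was not tested.

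No table of this array's genes was used here, and a gene was named only where a probe matched the transcribed part of a RefSeq promoter window of GRCm38.p6 over at least 30 bases, which placed 141 probes at 141 genes. None of these passed the adjusted p of 0.05 in limma, against 0.89% of all probes, and 10 of the 141 had an unadjusted p under 0.05, against 11.3% of all probes. Their median difference was -0.01. Of the 857 genes in the 33 lists of liver, stress and cell type genes, 9 were located in this way, too few to describe any list.

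Cyp3a11, a hepatocyte cytochrome P450 that oxidizes drugs and steroids, was read by Z00032989-1, which matches chr5:145879805-145879854 on the minus strand, at the annotated start of its transcript. Its ratio was 5.93, 5.83 and 5.95 in tap/tap and 5.91, 5.64 and 5.88 in tap/as. These levels, far above the reference in every liver, fit the labelled tissue, and the groups overlapped (difference -0.09, SE 0.37, limma adjusted p = 0.958). Rps25, a protein of the small ribosomal subunit, was read by Z00070678-1 at chr9:44407702-44407757 on the plus strand, across the annotated start. It had the smallest p of the located probes, with -1.97, -2.26 and -2.22 in tap/tap and -1.72 and -1.62 in tap/as replicates 1 and 3. Replicate 2 of tap/as lay among the controls, and the difference of 0.37 (SE 0.12) had an unadjusted limma p of 0.00999 and an adjusted p of 0.221. Rpl10a, a protein of the large ribosomal subunit, differed by -0.16 (SE 0.10, limma adjusted p = 0.605).

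Of genes in the stress lists, Prdx1, a peroxidase that removes hydrogen peroxide and is an NRF2 target, read 0.12, 0.33 and 0.34 in tap/tap and 0.28, 0.56 and 0.21 in tap/as. The difference was 0.08 (SE 0.10, limma adjusted p = 0.821). Taldo1, the transaldolase of the pentose phosphate pathway, differed by -0.08 (SE 0.10, limma adjusted p = 0.805). Its liver signals, 65.0 to 84.2 intensity units, were below 146.5, the lowest median of the 6 arrays. Hspa1a, an inducible heat shock protein 70 nearly identical to Hspa1b, differed by -0.05 (SE 0.11, limma adjusted p = 0.919) with liver signals of only 32.6 to 51.0 intensity units. Sec61b, a subunit of the channel that admits proteins to the endoplasmic reticulum, differed by 0.10 (SE 0.13, limma adjusted p = 0.841). Acta2, the smooth muscle actin of activated stellate cells, differed by -0.10 (SE 0.07, limma adjusted p = 0.602). Its liver signals, 89.5 to 108.8 intensity units, were also below that lowest array median. For each of these 5 genes the groups overlapped. Each value comes from a probe at the annotated start and does not describe the gene as a whole.

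The postweaning and prenatal exposures share the tap/tap arrays as controls, so their differences are set side by side without a count of agreement. Against those controls the prenatal comparison had 1 probe past the adjusted p (0.00238%) and 1485 past the unadjusted p of 0.01 (3.54%). Over the 355 probes called higher after postweaning arsenic, the median difference was 0.48 in tap/as and 0.26 in as/tap. These probes were chosen for high tap/as and low tap/tap values, so the order of these medians follows in part from that choice and is given as a description. Fitted directly against each other, tap/as and as/tap differed at 2 probes (0.00476%), Z00020599-1 and Z00041696-1, and at 720 probes (1.71%) at an unadjusted p of 0.01.

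**Figure D5:**
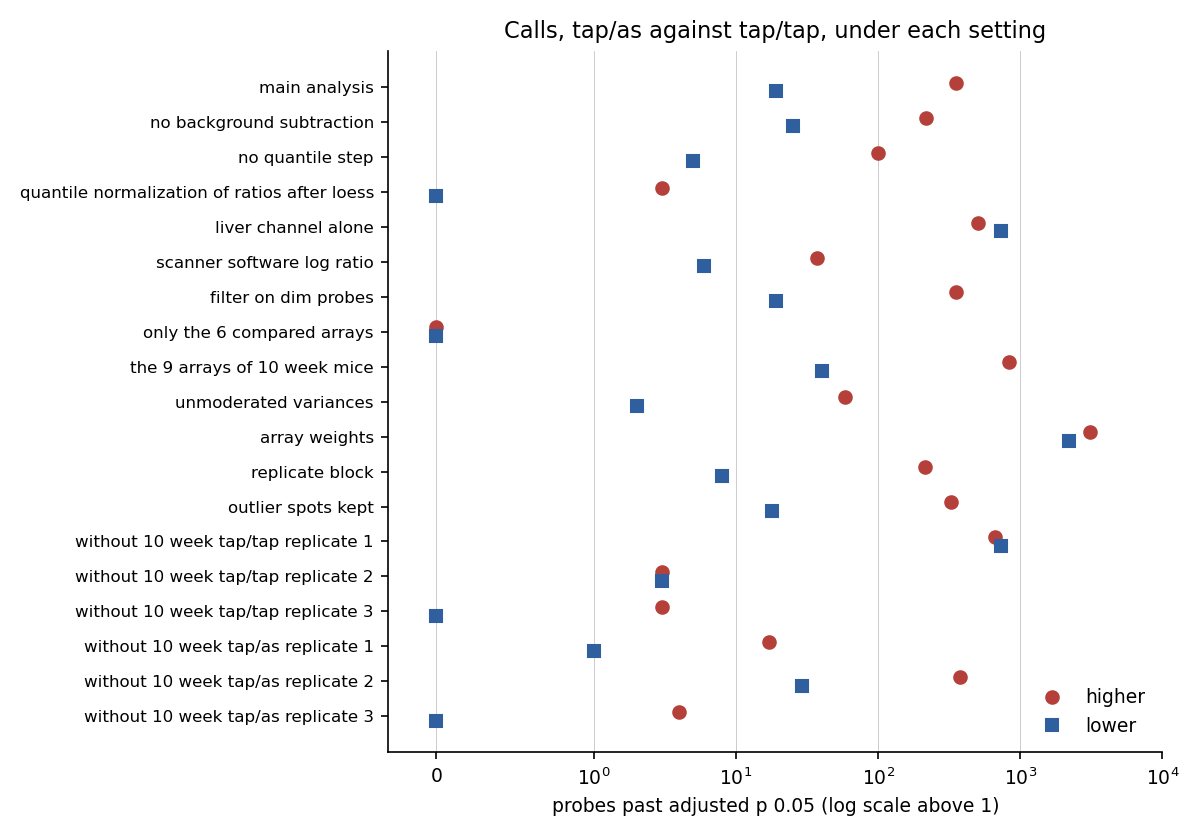
Number of probes past the adjusted p of 0.05, higher (circles) and lower (squares) in tap/as, in the main analysis and under each alternative; the axis is linear from 0 to 1 and logarithmic above 1. Counts run from 0 with the 6 compared arrays to 3097 higher and 2202 lower with array weights.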

How the data were processed

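Total liver RNA was measured on 15 arrays in 5 groups of 3. The authors deposited scanner output of Feature Extraction A.7.5.1, with spot intensity in each dye on a linear scale and a log10 ratio of red over green. The study's methods name quantile normalization, log2 transformation and lowess, and steps of these kinds were applied here. Mean-centring, also named there, was left out, and normexp was not among the named steps. Normexp background correction (offset 50), quantile normalization of each channel, the log2 ratio of Cy3 over Cy5 and loess (span 0.3) were applied in limma 3.58.1 under R 4.3.3. Control spots were dropped, outlier spots set missing, and spots averaged to 42006 probes. One model over 15 arrays gave each contrast (10 residual and 3.16 prior degrees of freedom), with Benjamini-Hochberg adjustment over all probes, and was tested on simulated data.

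The probes named had an adjusted p under 0.05 and groups that did not overlap, being the 10 with the largest difference and the 5 with the smallest p in each direction. The lists of genes and the comparison were chosen with earlier results of these data known, and the matching to promoter windows after the files had been read, since they give no gene names. The number of arrays limits the precision. P-values rest on the spread between single mice of separate litters within each of the 5 groups, newborn livers included. That spread was pooled and moderated by limma, so it need not match the spread among the 6 compared arrays.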

Additional observations from a re-analysis of the deposited data

Results flagged for a closer look

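The effects of postweaning and of prenatal arsenic in 10 week liver differed by limma's test at 2 probes. With the 9 arrays of 10 week mice no probe passed, with 3905 at an unadjusted p under 0.05, and 1 passed with only the 6 arrays of both exposures or with unmoderated variances. Z00020599-1 was higher by 2.29 after postweaning than after prenatal exposure (SE 0.20, limma adjusted p = 0.00102), in 3 of 3 livers. Z00041696-1 was lower after postweaning exposure, with a difference of -1.13 (limma adjusted p = 0.00732), again in 3 of 3 livers. Groups of 3 arrays were not tested for a single outlying value.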

How the results depend on the processing

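Against 374 adjusted calls, 241 were made without background subtraction, 104 without the quantile step, 3 with quantile normalization of the ratios after loess, 1237 in the liver channel alone, 43 with the scanner's own log ratio, 868 with the 9 arrays of 10 week mice, 60 with unmoderated variances and 5299 with array weights, where tap/tap replicate 1 had the lowest weight, 0.302. The 6 compared arrays alone gave 0, with 5176 probes at an unadjusted p under 0.05. The unadjusted count of 1900 became 918 with quantile normalized ratios, 3470 in the liver channel and 6445 with array weights. The share of calls that were higher, 94.9%, became 89.6% without background subtraction, 100% with quantile normalized ratios, 86% with the scanner's ratio and 58.4% with array weights, and turned to 40.8% in the liver channel alone. Calls in the reference channel, 1118, became 4127 without the quantile step, 0 with the 6 arrays (the smallest number), 2937 with the 9 arrays and 10403 with array weights. The 2 probes between postweaning and prenatal arsenic became 1 with quantile normalized ratios, with only the 6 arrays of both exposures or with unmoderated variances, 5 in the liver channel, 96 with array weights and 0 with the 9 arrays, where 3905 had an unadjusted p under 0.05.

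Leaving out 1 array gave 3 to 1391 adjusted and 1088 to 4123 unadjusted calls, a share of 47.5% to 100% higher, 150 to 3568 reference channel calls, and 1 to 16 probes between the exposures. The filter on dim probes removed none, and is left out of the tallies of alternatives.

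Same-numbered arrays correlated at 0.0871, 0.504 and -0.265 in their deviations from the group means, so the numbers do not pair the mice. With a replicate block, adjusted calls were 220 and reference channel calls 441. Over the named probes, 226 of 408 values under alternatives stayed past the adjusted p in the same direction and 181 kept the direction only. The 1 reversal was Z00024586-1, at 0.21 in the liver channel alone. The cause of these differences was not tested.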
